A study of Homo sapiens with 3 samples.

Results

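The genes described here switch MAP kinase signaling off or report its strength: the dual specificity phosphatases (DUSP genes), the Sprouty and Spred inhibitors, and 5 genes used as readouts of ERK output (ETV1, ETV4, ETV5, PHLDA1 and MAFF). They were chosen by gene symbol from the annotation of the array, which gave 34 genes measured by 73 probe sets, of 19775 genes and 54675 probe sets in all. The arrays compared SKOV3 cells, an ovarian cancer cell line, carrying a stable lentiviral shRNA: G9a shRNA1, G9a shRNA2 or, as the control, one against luciferase (Luc shRNA). All 3 lines had been selected with puromycin, and none of the labels names a drug or a stimulus in addition. G9a is a methyltransferase of lysine 9 of histone H3, and the comparison asks which genes change in level when it is depleted. Each condition was measured on 1 array, so there is no replicate error, no p-value is given, and a difference compares these 3 RNA samples. Both comparisons also share the same Luc shRNA array.

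As background, the MAP kinases ERK, JNK and p38 are active when a threonine and a tyrosine of their activation loop are both phosphorylated, and the classical DUSP enzymes remove both phosphates. Several of them, and the Sprouty proteins, are themselves transcribed when ERK is active, so that the pathway limits itself and their mRNA is widely read as a record of ERK activity. In its G9a knockdown cells, however, the study reported less phosphorylated ERK. How the mRNA levels below relate to ERK activity was not tested. The atypical DUSP enzymes lack the kinase-binding domain of the classical ones, and some act on substrates other than MAP kinases.

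Each value is a MAS5 signal, which is linear, and a log2 fold change is the log2 ratio of a G9a shRNA array to the Luc shRNA array. EHMT2, which encodes G9a, had signals of 29.7 under G9a shRNA1 and 79.2 under G9a shRNA2, against 182 with Luc shRNA, log2 fold changes of -2.62 and -1.20. That was the brightest of 3 probe sets. A dimmer EHMT2 probe set had 23.9 and 16.4, against 27.6 with Luc shRNA (-0.21 and -0.75), and the third was under the filter, so that a drop past 2-fold was seen at 1 probe set. The mean over all 3 was -0.46. All 6 epithelial markers reached the median of all values (12.0) on each array, and their summed signal was 7083 with G9a shRNA1 and 8025 with G9a shRNA2, against 5136 with Luc shRNA. All 6 were higher with both shRNAs, from KRT18 (0.13 and 0.40) to EPCAM (1.06 and 0.98) and KRT19 (1.90 and 1.84, at 49.9 and 48.2, against 13.4), and their part in the results was not tested. Of 4 ovarian markers, the Müllerian factor PAX8 and WT1 passed that median, at 521 and 62.5 with G9a shRNA1 and 621 and 50.5 with G9a shRNA2, against 567 and 43.7 with Luc shRNA, whereas MUC16 and MSLN were under it on each array, as were the 3 measured leukocyte markers. Of 3 endothelial markers, PECAM1 alone passed it, with 29.9 and 28.5, against 15.4 with Luc shRNA. The filter kept a probe set that reached this median on at least 1 array, and a probe set or gene was called where both shRNAs were more than 2-fold from Luc shRNA on the same side. The SD of the log2 difference between both G9a shRNA arrays was 0.25 for bright probe sets, those past the 75th percentile of all values (89.7) on some array, and 0.86 for the dimmer ones that still passed the filter. This spread can hold differences between the shRNAs as well as measurement error. On the β-actin control probe sets the ratio of 3′ to 5′ signal was 1.83 (G9a shRNA1) and 1.47 (G9a shRNA2), against 3.68 (Luc shRNA). The 5′ β-actin probe set gave log2 fold changes of 1.07 and 1.54, the 3′ one gave 0.06 and 0.21, and all GAPDH control probe sets lay between -0.23 and -0.06. The part of RNA or labeling quality in the fold changes that follow was not tested.

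Promoter windows of RefSeq (GRCh38.p14), each from 250 bases before the annotated transcription start to 50 after it, held 28 of the 34 genes in 49 windows. Among the genes past 2-fold higher with both shRNAs, the windows of DUSP1, DUSP6, SPRY4 and MAFF are shown, and none of DUSP5. The window of DUSP8, under 2-fold at its brightest probe set, is also shown because it carries a pair of cAMP response elements. The 5 windows shown were thus partly chosen by motif. They lie at chr5:172771146-172771445 on the minus strand (DUSP1), chr12:89352452-89352751 on the minus strand (DUSP6), chr5:142324198-142324497 on the minus strand (SPRY4), chr22:38201744-38202043 on the plus strand (MAFF, the more upstream of its 2 windows) and chr11:1572222-1572521 on the minus strand (DUSP8), and are written 5′ to 3′ along the gene. Capitals mark the cAMP response element TGACGTCA and the ETS core CGGAA, which reads TTCCG on the other strand.
DUSP1: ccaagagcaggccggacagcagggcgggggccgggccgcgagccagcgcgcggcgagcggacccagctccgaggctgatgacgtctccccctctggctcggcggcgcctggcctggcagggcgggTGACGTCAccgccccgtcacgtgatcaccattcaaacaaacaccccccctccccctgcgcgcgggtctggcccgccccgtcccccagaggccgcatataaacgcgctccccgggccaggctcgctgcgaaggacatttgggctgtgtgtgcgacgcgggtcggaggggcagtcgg
DUSP6: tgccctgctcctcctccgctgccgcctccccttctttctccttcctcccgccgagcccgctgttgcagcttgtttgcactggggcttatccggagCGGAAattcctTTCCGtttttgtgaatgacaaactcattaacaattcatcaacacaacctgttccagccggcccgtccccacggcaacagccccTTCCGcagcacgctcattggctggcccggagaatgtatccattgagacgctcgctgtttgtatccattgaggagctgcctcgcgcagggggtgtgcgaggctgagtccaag
SPRY4: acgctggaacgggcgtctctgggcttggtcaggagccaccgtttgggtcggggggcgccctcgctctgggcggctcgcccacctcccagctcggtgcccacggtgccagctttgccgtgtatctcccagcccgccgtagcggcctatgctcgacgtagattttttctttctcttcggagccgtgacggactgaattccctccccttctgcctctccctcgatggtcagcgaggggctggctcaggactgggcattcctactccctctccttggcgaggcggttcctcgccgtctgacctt
MAFF: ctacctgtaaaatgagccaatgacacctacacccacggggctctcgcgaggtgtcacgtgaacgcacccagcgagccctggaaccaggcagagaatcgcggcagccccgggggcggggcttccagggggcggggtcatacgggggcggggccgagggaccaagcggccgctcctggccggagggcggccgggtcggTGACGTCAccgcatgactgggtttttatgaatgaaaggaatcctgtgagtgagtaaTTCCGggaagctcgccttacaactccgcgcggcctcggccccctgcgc
DUSP8: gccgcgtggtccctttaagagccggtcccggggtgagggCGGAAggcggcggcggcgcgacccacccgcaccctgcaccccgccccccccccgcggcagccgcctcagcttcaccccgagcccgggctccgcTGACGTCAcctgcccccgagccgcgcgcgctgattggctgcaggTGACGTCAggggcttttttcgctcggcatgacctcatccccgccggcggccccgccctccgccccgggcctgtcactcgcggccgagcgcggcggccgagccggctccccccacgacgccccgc

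The element TGACGTCA, which is the same on both strands, was found at positions -125 to -118 of DUSP1, -54 to -47 of MAFF, and both -118 to -111 and -74 to -67 of DUSP8, counted from the transcription start. These were the 3 members that held it, in 3 of 49 member windows (6.12%), against 649 of 35116 windows of all genes (1.85%). The DUSP6 window held the ETS core 3 times, the SPRY4 window held neither motif, and the core was in 15 member windows (30.6%), against 34.9% of all windows. The AP-1 motif TGANTCA was in 3 member windows (6.12%), against 7.71% of all, and the CArG box of serum response factor was in none of the members and in 1.29% of all windows. The motifs do not overlap one another in the windows shown. A match is a description of these letters and shows no binding.

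Over the 34 genes, each read from its brightest probe set (by mean log2 signal), 5 were more than 2-fold higher with both G9a shRNAs (DUSP1, DUSP5, DUSP6, SPRY4 and MAFF) and 0 were more than 2-fold lower. Among all 13192 genes past the filter, 2.57% were higher by the same rule and 1.66% were lower. Past the 75th percentile the same 5 members were called, against 0.611% higher and 0.467% lower among 8348 genes. Of the 34 members, 29 passed the filter, and 2 of these (SPRY1 and DUSP26) passed through a G9a shRNA array alone, neither of them called. The study had picked DUSP1, DUSP3, DUSP5 and SPRY4 from these arrays, so their direction here is not independent evidence. Its own further evidence included quantitative RT-PCR of genes from the arrays. It also reported binding of G9a at the SPRY4 promoter and none in the DUSP5 promoter regions it examined. Among the 30 members other than these picks, 2 were called, DUSP6 and MAFF. The whole list of members was also chosen with earlier results of these data known, so these calls are a description. Without a threshold, 21 of the 34 were above 0 with both shRNAs, 7 were below 0 with both and 6 had opposite signs, where 7977 of all 19775 genes were above 0 with both and 6257 below. The median log2 fold change of the 34 genes was 0.18 (mean of both shRNAs), against 0.04 over all genes. Read at the brightest probe set of each gene, the bright members furthest above 0 came from 4 groups. These were the phosphatases of ERK, the inducible nuclear phosphatases, the Sproutys and the output genes. A bright probe set of the atypical DUSP3, not its brightest, gave 0.92 and 1.41.

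**Figure D1:**
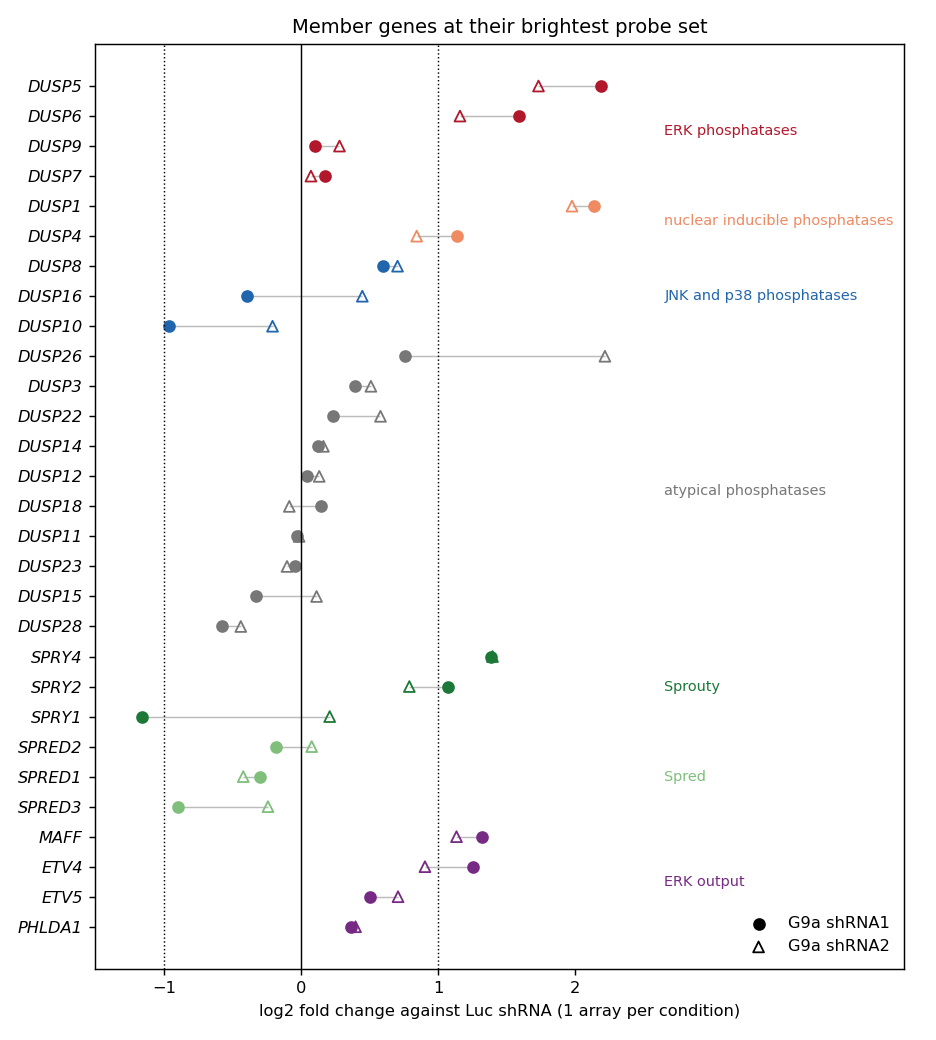
The x axis gives the log2 fold change relative to Luc shRNA of the 29 member genes past the filter at their brightest probe set, with G9a shRNA1 (filled circles) and G9a shRNA2 (open triangles), grouped by role; 1 array per condition, and a line joins the 2 shRNAs of a gene. Dotted lines mark 2-fold, and DUSP1, DUSP5, DUSP6, SPRY4 and MAFF are past it with both.

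Of the 4 phosphatases selective for ERK, 2 were past 2-fold higher with both shRNAs and the other 2 stayed near 0. DUSP6, a cytoplasmic phosphatase of ERK and one of its classical transcriptional targets, was past 2-fold at each of its 3 probe sets. Its brightest probe set had signals of 182 under G9a shRNA1 and 135 under G9a shRNA2, against 60.4 with Luc shRNA, log2 fold changes of 1.59 and 1.16. The second gave 182 and 187.5, against 39.8 with Luc shRNA (2.19 and 2.23). At both probe sets the G9a shRNA arrays were above the Luc shRNA array. The third gave 75.9 and 62.8, against 4.13 with Luc shRNA, a value near the background. Its log2 fold changes of 4.20 and 3.93 became 2.67 and 2.39 once every value under the median was set to the median (the floor). After quantile normalization, the brightest DUSP6 probe set gave 1.58 and 0.995 (just under 2-fold with G9a shRNA2) and the second gave 2.19 and 2.09.

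DUSP5, the nuclear phosphatase of ERK, has 1 probe set, with signals of 715 under G9a shRNA1 and 520.2 under G9a shRNA2, against 157 with Luc shRNA. Its log2 fold changes were 2.19 and 1.73. DUSP7, a cytoplasmic phosphatase of ERK, had 104 and 96.7, against 91.9 with Luc shRNA, at its brightest probe set (0.18 and 0.07). A dim DUSP7 probe set (12.0 and 11.6, against 5.56) gave 1.11 and 1.07, which became 0.01 and 0.00 with the floor at the median. DUSP9, the third cytoplasmic enzyme, gave 0.10 and 0.28 at its only probe set. That probe set was dim, at 26.9 and 30.4, against 25.1 with Luc shRNA. For probe sets of its class the SD between the G9a shRNA arrays was 0.86. The higher levels were therefore seen at DUSP5 and DUSP6 and not at the brightest probe sets of DUSP7 and DUSP9.

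The nuclear inducible phosphatases DUSP1, DUSP2 and DUSP4 act on ERK, JNK and p38 in different proportions. DUSP1, which is transcribed within minutes of a stimulus, had signals of 2329 under G9a shRNA1 and 2083 under G9a shRNA2, against 529 with Luc shRNA, at its brightest probe set. The log2 fold changes were 2.14 and 1.98. Of its other probe sets, both under the 75th percentile, one gave 11.8 and 17.3, against 2.03 with Luc shRNA, and the other gave 3.08 and 18.2, against 17.8. The 2 dim probe sets of DUSP1 thus went opposite ways with G9a shRNA1 (-2.53 and 2.54) but not with G9a shRNA2 (0.03 and 3.09), and when all probe sets of a gene were averaged DUSP1 was no longer called.

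DUSP4, which is induced by ERK and acts back on it in the nucleus, was higher with both shRNAs at each of its 3 probe sets, all past the 75th percentile. The brightest had 291 with G9a shRNA1 and 237 with G9a shRNA2, against 132 with Luc shRNA (1.14 and 0.84). The other 2 gave log2 fold changes of 0.71 and 0.43, and of 0.94 and 0.70. The gene was past 2-fold with G9a shRNA1 alone. DUSP2, which is best known from lymphocytes, was under the filter on all 3 arrays.

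**Figure D2:**
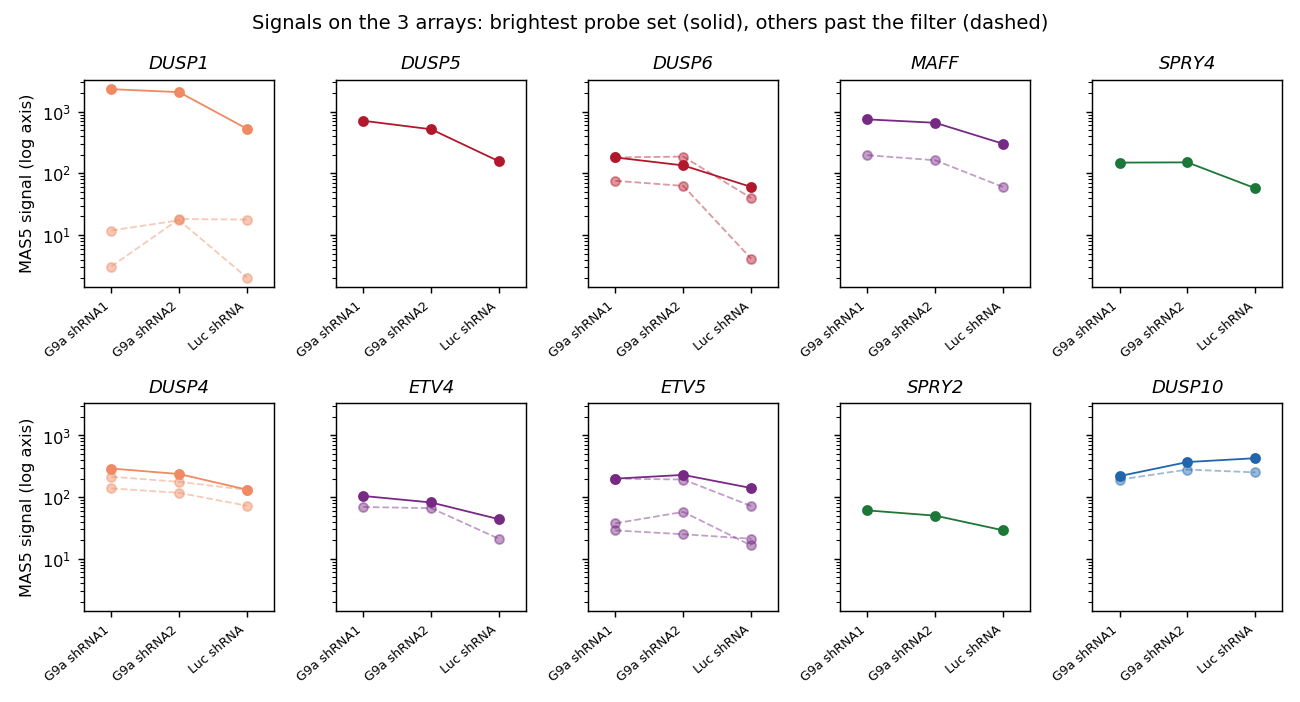
MAS5 signal (log axis) on the G9a shRNA1, G9a shRNA2 and Luc shRNA arrays for 10 member genes, 1 line per probe set past the filter, solid for the brightest probe set of the gene and dashed for the others. For DUSP6, MAFF, DUSP4, ETV4 and ETV5 every probe set shown is higher on both G9a shRNA arrays than on the Luc shRNA array, whereas the brightest DUSP10 probe set is at 219 and 371, against 428.

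The 3 phosphatases of JNK and p38 had no member past 2-fold with both shRNAs at the brightest probe set. DUSP10 was lower, with signals of 219 under G9a shRNA1 and 371 under G9a shRNA2, against 428 with Luc shRNA, log2 fold changes of -0.97 and -0.21. Its second probe set gave 192 and 280.0, against 252 (-0.39 and 0.15), so that a lower level was seen at both probe sets with G9a shRNA1 only. DUSP16 had 73.6 and 132, against 96.5 with Luc shRNA, log2 fold changes of -0.39 and 0.45. A dimmer DUSP16 probe set had 28.2 and 28.6, against 26.1 (0.11 and 0.13), without that difference between the shRNAs. DUSP8 was higher with both, at 90.1 and 96.8, against 59.4 with Luc shRNA (0.60 and 0.70). A dimmer DUSP8 probe set had 31.1 and 49.3, against 7.69 (2.02 and 2.68, or 1.38 and 2.04 with the floor). The group median was -0.39 with G9a shRNA1 and 0.45 with G9a shRNA2, so it had no common direction.

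Set directly against each other, without the Luc shRNA array, the 2 G9a shRNA arrays differed more for DUSP10 and DUSP16 than for any other member past the 75th percentile, at their brightest probe sets. The log2 difference of G9a shRNA1 minus G9a shRNA2 was -0.76 for DUSP10 and -0.84 for DUSP16, 2.98 and 3.30 times the SD of bright probe sets. They were the 2 of these 22 members that lay more than 2 SD from 0, and 7.74% of all bright probe sets did. DUSP5, DUSP6 and DUSP4 were higher with G9a shRNA1 by 0.46, 0.43 and 0.30, but within 2 SD, and SPRY4 differed by -0.01. The second bright DUSP6 probe set had the reverse order, at 182 with G9a shRNA1 and 187.5 with G9a shRNA2. Of the 22 members, 9 were higher with G9a shRNA1.

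The 12 atypical phosphatases had a median log2 fold change of 0.06, and none was past 2-fold with both shRNAs. DUSP3 (VHR), which dephosphorylates ERK and JNK and was among the picks of the study, was higher at each of its 3 bright probe sets. The brightest had 460.1 with G9a shRNA1 and 497 with G9a shRNA2, against 349 with Luc shRNA (0.40 and 0.51). The next had 232 and 324, against 122 (0.92 and 1.41), and the third 117 and 185, against 79.1 (0.57 and 1.22). The direction was shared while the size differed between probe sets, and 2 of the 3 were past 2-fold with G9a shRNA2. DUSP14, another small phosphatase of MAP kinases, had 826 and 847, against 756 (0.13 and 0.16).

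DUSP22, which acts in the JNK pathway, gave 0.23 and 0.58, and 0.58 and 0.56 at a second probe set. DUSP11, a phosphatase of RNA 5′ ends, gave -0.03 and -0.01, DUSP12 gave 0.05 and 0.13, and DUSP23 gave -0.04 and -0.10. DUSP28 had 82.2 and 90.4, against 122.5 with Luc shRNA, lower with both shRNAs without passing 2-fold (-0.58 and -0.44). DUSP26 gave 0.76 and 2.22 at signals of 5.25 and 14.4, against 3.11 with Luc shRNA, and 0.00 and 0.27 with the floor. DUSP15 and DUSP18 had opposite signs with the 2 shRNAs at their brightest probe sets, and DUSP19 and DUSP21 were under the filter. The bright atypical members other than DUSP3 and DUSP22 therefore lay between -0.58 and 0.16.

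Among the 4 Sproutys, which are induced by receptor tyrosine kinases and block signaling to RAS and RAF, SPRY4 and SPRY2 were higher. SPRY4 had signals of 149.8 under G9a shRNA1 and 151 under G9a shRNA2, against 57.4 with Luc shRNA, log2 fold changes of 1.38 and 1.40. SPRY2 had 60.9 and 50.0, against 28.9 with Luc shRNA, log2 fold changes of 1.07 and 0.79, past 2-fold with G9a shRNA1 alone. Each has 1 probe set, that of SPRY2 under the 75th percentile. SPRY1 passed the filter only on the G9a shRNA2 array, at 12.3, and SPRY3 was under it, so that neither could be followed here.

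The Spreds, relatives of the Sproutys that bring the RAS inactivator neurofibromin to the membrane, were not higher. SPRED1 had 158 with G9a shRNA1 and 146 with G9a shRNA2, against 195 with Luc shRNA (-0.30 and -0.42), and gave -0.04 and -0.40 at a second probe set. SPRED2 had 423 and 507, against 480.0 with Luc shRNA (-0.18 and 0.08). SPRED3 had 12.4 and 19.6, against 23.2 with Luc shRNA (-0.90 and -0.24), near the background. The median of the 3 Spreds was -0.36, against 0.74 for the 4 Sproutys, a difference that was not tested. The Sprouty median includes the dim SPRY1 and SPRY3 and was 0.47 with the floor, where that of the Spreds stayed at -0.36.

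Of the 5 readout genes of ERK, MAFF alone was past 2-fold with both shRNAs at its brightest probe set, and the others depended on the probe set. MAFF, a small MAF transcription factor without an activation domain, had 753 with G9a shRNA1 and 663 with G9a shRNA2, against 302 with Luc shRNA (1.32 and 1.13). Its second probe set had 198 and 163, against 60.0 (1.72 and 1.45). Both MAFF probe sets were past 2-fold with both shRNAs, also after quantile normalization, where the brightest gave 1.34 and 1.01.

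ETV4 and ETV5, ETS transcription factors of the PEA3 group that act downstream of ERK, were higher at every probe set past the filter. ETV4 had 104 with G9a shRNA1 and 81.8 with G9a shRNA2, against 43.7 with Luc shRNA (1.25 and 0.90), and 69.1 and 66.2, against 21.0 (1.72 and 1.65), at a dimmer probe set. The brightest ETV5 probe set had 199 and 229, against 140.4 with Luc shRNA (0.51 and 0.71). A second, also past the 75th percentile, had 199 and 193, against 71.7 (1.47 and 1.43). Of the dimmer ETV5 probe sets that passed, one gave 1.19 and 1.81 and the other 0.45 and 0.24. Of the 6 ETV4 and ETV5 probe sets past the filter, 3 were past 2-fold higher with both shRNAs, the brightest of neither gene among them. ETV1, the third gene of the group, was under the filter at all 5 of its probe sets.

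PHLDA1, a pleckstrin homology-like protein induced by ERK signaling, has 6 probe sets, all past the 75th percentile. The brightest had 2928 with G9a shRNA1 and 2989 with G9a shRNA2, against 2269 with Luc shRNA (0.37 and 0.40). One probe set was past 2-fold with both, at 449 and 496, against 216 with Luc shRNA (1.05 and 1.20). Another gave 292 and 237, against 291 (0.00 and -0.29). The 6 probe sets of PHLDA1 thus ran from a mean log2 fold change of -0.15 to one of 1.13, and its level cannot be summarized by a single value.

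**Figure D3:**
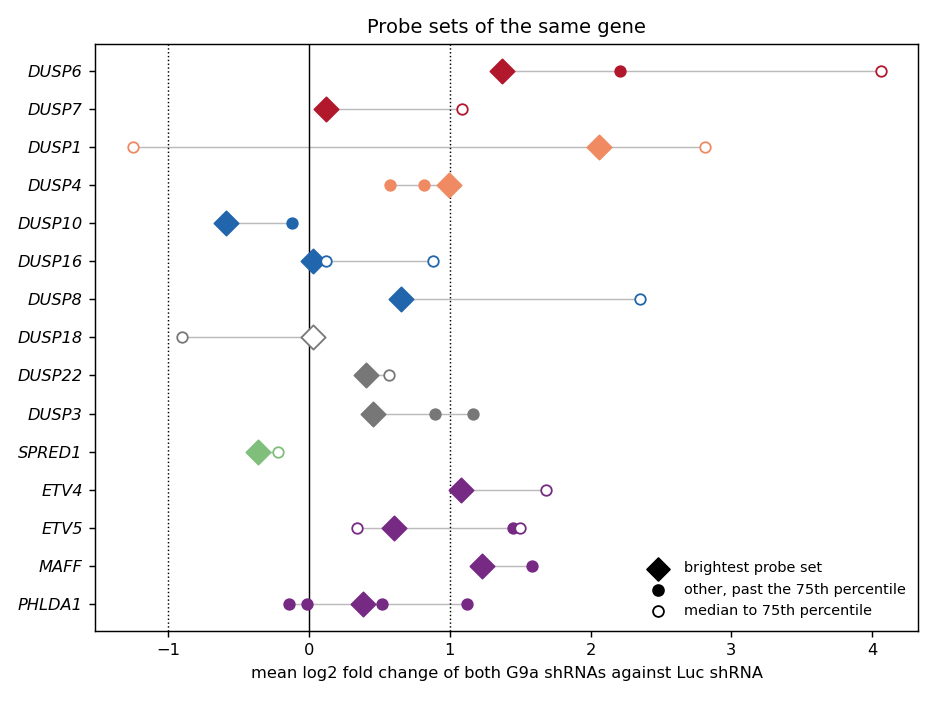
Mean log2 fold change of both G9a shRNAs against Luc shRNA (x axis) for every probe set past the filter of the 15 member genes with several of them; diamonds are the brightest probe set of a gene, filled symbols have a highest signal past the 75th percentile and open ones lie between the median and it. All DUSP6, DUSP4, DUSP3, ETV4, ETV5 and MAFF probe sets lie above 0, while those of DUSP1 and PHLDA1 lie on both sides.

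Over all probe sets of the family, 15 of 73 were past the filter and more than 2-fold higher with both shRNAs, from 10 genes, and 0 were lower, with 55 of the 73 past it. Of the 25313 probe sets with 1 symbol past the filter, 3% were higher and 1.66% were lower. In 4 of the 15 the Luc shRNA signal was under the median of all values (1 probe set each of DUSP1, DUSP6, DUSP7 and DUSP8). Past the 75th percentile there were 9 of 35, from DUSP1, DUSP5, DUSP6, SPRY4, MAFF, ETV5 and PHLDA1. ETV5 and PHLDA1 were among these only through probe sets other than their brightest. The share over all probe sets past that filter was not computed, so the 9 of 35 has no like share beside it. Counted by gene at the brightest probe set, 5 of 22 members past it were higher, against 0.611% of all genes. Of the 15 genes with several probe sets past the filter, 9 were higher with both shRNAs at each of them, SPRED1 was lower at each, and 5 had both signs (DUSP1, DUSP10, DUSP16, DUSP18 and PHLDA1). The same counts were not made over all genes, so they describe these members only. Probe sets of 1 gene share the same RNA and are not replicates.

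**Figure D4:**
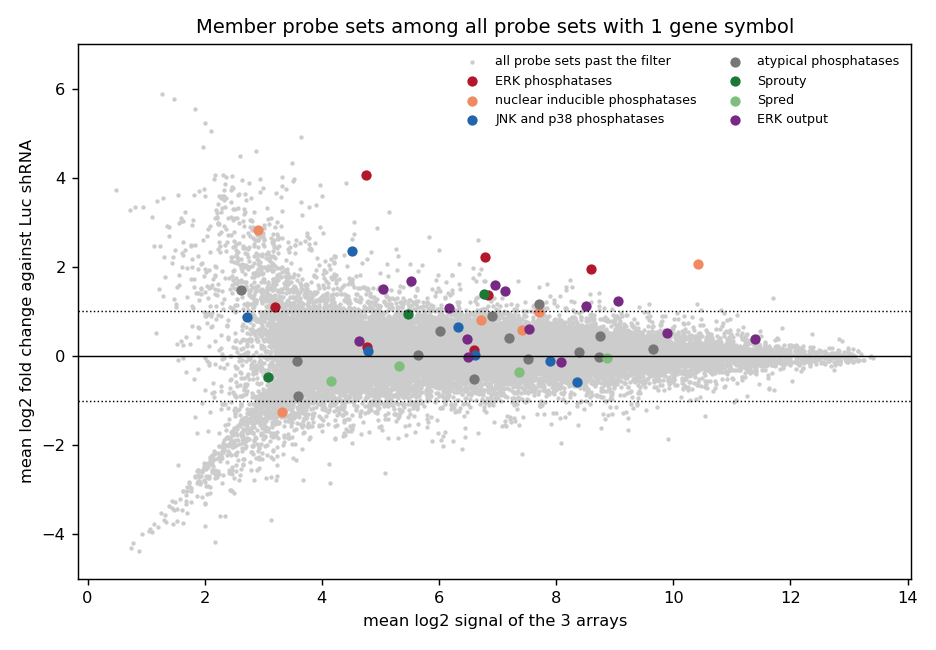
Mean log2 fold change of both G9a shRNAs against Luc shRNA (y axis) over the mean log2 signal of the 3 arrays (x axis), for all probe sets with 1 gene symbol past the filter (grey) and for the 55 member probe sets past it, colored by role. Dotted lines mark 2-fold; the brightest DUSP1 probe set lies at 2.06 and DUSP5 at 1.96, above the grey band at their signal level.

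The kinases and adaptors of the pathway had medians near that of all genes (0.04) or slightly above it. Of the 19 listed genes from RAS and RAF to ERK, 13 were measured here, none was past 2-fold with both shRNAs, and the median log2 fold change was 0.02. Ranked by the smaller of the 2 changes on a shared side, the bright genes furthest from 0 were KSR1, a scaffold of RAF and MEK (0.52 and 0.76), RASA2, an inactivator of RAS (0.34 and 0.59), and PTPN11, the phosphatase SHP2 that relays receptor signals (0.19 and 0.25). Of 8 measured kinases of the JNK and p38 modules, MAPK12 was called at signals of 5.57 and 13.7, against 2.33 with Luc shRNA, near the background, and the median was 0.20. The 3 bright genes of that list were MAPK9 (-0.18 and -0.15), MAP2K4 (0.12 and 0.28) and MAPK8 (0.09 and 0.21), which are kinases of the JNK module.

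Of the 8 kinases downstream of MAP kinases, none was past 2-fold with both shRNAs and the median was 0.11. MAPKAPK3, a kinase activated by p38, was lower, with 275 and 369, against 584 with Luc shRNA (-1.09 and -0.66). MKNK2, which phosphorylates the cap-binding protein eIF4E, was higher (0.57 and 0.70), as was RPS6KA5, a nuclear kinase of histone H3 (0.69 and 0.57).

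Other genes used as readouts of ERK were mostly above 0 without passing 2-fold. Of the 11 measured, 9 were higher with both shRNAs, 1 was lower (EPHA4, under the filter), and none was past 2-fold with both, with a median log2 fold change of 0.52. EPHA2, a receptor tyrosine kinase, had 620 with G9a shRNA1 and 627 with G9a shRNA2, against 346 with Luc shRNA (0.84 and 0.86). FOSL1, an AP-1 subunit, had 633 and 594, against 415 (0.61 and 0.52), and MYC, a growth-promoting transcription factor, had 701 and 590, against 428 (0.71 and 0.46). EGR1, an immediate early gene, had 107 and 78.3, against 107 with Luc shRNA (0.00 and -0.45), the measured exception past the filter. With each gene as the mean of both shRNAs, the nuclear inducible phosphatases had the highest group median, 0.99. The ERK phosphatases had 0.78, the Sproutys 0.74 and the ERK output genes 0.61. The atypical phosphatases had 0.06, the JNK and p38 phosphatases 0.03 and the Spreds -0.36. This order depended on the probe sets. With all probe sets of a gene averaged, the ERK phosphatases had a median of 1.28 and the JNK and p38 phosphatases 0.94. The nuclear inducible phosphatases then had 0.79, the Sproutys 0.74, the ERK output genes 0.69, the atypical phosphatases 0.07 and the Spreds -0.57. The groups hold 3 to 12 genes, and the differences between their medians were not tested.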

How the data were processed

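RNA of 3 SKOV3 lines was hybridized to Affymetrix Human Genome U133 Plus 2.0 arrays, 1 per condition. The deposited values are signal intensities per probe set on a linear scale, made by the authors with MAS5, whose version and settings are not given in the sources used here. Array medians were 12.3 (G9a shRNA1), 11.8 (G9a shRNA2) and 11.7 (Luc shRNA), and the values were used as deposited. Signal over background and the number of arrays limit the precision.

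Genes came from the platform annotation (41097 probe sets with 1 symbol, 1801 with several, 11777 with none), with symbols updated by Entrez identifier, 54 of which had no match. Of several probe sets of a gene, the one brightest on average (mean log2 signal) stood for it. The filter (highest signal at or above the median), the call (both shRNAs past 2-fold on the same side) and the grouping by substrate are descriptions, with no test. The members, the 4 lists of other pathway genes and the rule for naming (members past 1.5-fold with both shRNAs at any probe set past the filter, the study's picks, the brightest member of each group, and up to 3 bright genes per list) were chosen with earlier results of these data known. Python 3.11.15, numpy 2.4.6, pandas 2.3.3 and matplotlib 3.10.9 were used. The call was tested on simulated data, with changes placed at bright probe sets and the same noise at every probe set. That setting did not cover the wider spread of dimmer probe sets. Alternatives were other filters, quantile normalization, median centring, a floor at the median, 1.5-fold and 3-fold, each shRNA alone and the mean over probe sets, and, added after the data were seen, the family without the study's picks.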

Additional observations from a re-analysis of the deposited data

How the results depend on the processing

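No paired analysis was possible because each condition has 1 array. The count of 5 member genes higher with both G9a shRNAs was 8 with G9a shRNA1 alone, 10 at 1.5-fold, 2 at 3-fold (DUSP1 and DUSP5) and 2 without the study's picks, and it lay between 4 and 7 under the other alternatives. It was 4 after quantile normalization, which lost DUSP6 at its brightest probe set, and 7 with the mean over probe sets, which lost DUSP1 and added DUSP8, ETV4 and SPRED2. The count of 0 lower genes was 1 with G9a shRNA1 alone (SPRY1, near the background). The 15 higher probe sets were 9 with the filter at the 75th percentile and 7 at 3-fold, and the 0 lower ones were 1 with no filter and 3 with G9a shRNA1 alone. The median of the members ran from 0.11 (floor at the median) to 0.43 (mean over probe sets), and no called member changed sign. Quantile normalization shifted bright probe sets by 0.00 with G9a shRNA1 and by -0.14 with G9a shRNA2. Averaging over probe sets moved SPRED2 to 1.41, through 2 probe sets under the filter.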

Other observations

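STYX, a pseudophosphatase related to the DUSP enzymes that binds ERK but cannot dephosphorylate it, falls outside the symbol rule and was chosen after its values were seen. Its brightest probe set had signals of 58.3 under G9a shRNA1 and 79.6 under G9a shRNA2, against 225 with Luc shRNA, log2 fold changes of -1.95 and -1.5. Its other 3 probe sets, all dimmer, gave -0.88 and -0.75, -0.89 and -0.05, and -1.99 and -1.61 (both -0.85 with the floor at the median), so that STYX was lower with both shRNAs at each of them. STYXL1, a related pseudophosphatase, gave 0.58 and 0.33 at its brightest probe set.

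STYXL2, listed in the gene table with the older name DUSP27, had 42.9 with G9a shRNA1 and 40.7 with G9a shRNA2, against 9.80 with Luc shRNA, log2 fold changes of 2.13 and 2.05, or 1.84 and 1.77 with the floor at the median of all values. It too was chosen after its values were seen, and no explanation of either gene was tested.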
